A study of Homo sapiens with 2 samples.

Results

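Pericentromeric peaks of H3K9me3, the histone mark of constitutive heterochromatin, were taken from KBM7 cells, a near-haploid human line from a chronic myeloid leukemia. Chromatin was precipitated with an H3K9me3 antibody in 1 library, and an IgG library of the same line was not analysed here, so the values below come without replicates and without a control. A peak belonged to the set when its midpoint lay within 3 Mb on either side of the 3 Mb centromere gap of the hg19 assembly, on 17 chromosomes (1 to 12 and 16 to 20). Of 126965 peaks in all, 4751 met this rule, over 34 flanks that together span 102 Mb. The rest of the same 17 chromosomes held 100600 peaks over 2302 Mb. The gaps themselves were nearly free of peaks: 10 midpoints lay inside them, 4 on chromosome 17, 3 on chromosome 4, 2 on chromosome 7 and 1 on chromosome 3. Cells were grown in IMDM medium with fetal calf serum and fixed with formaldehyde. The library is represented by 78512210 reads over all gene intervals, where a read in overlapping intervals counts in each; the total of mapped reads was not used here.

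Human centromeres are built on arrays of alpha satellite, and the neighbouring pericentromeric sequence holds other satellites, segmental duplications and few genes. In that chromatin H3K9me3 is laid down by the SUV39H enzymes and bound by HP1 proteins. The satellite arrays are largely missing from hg19, so the flanks hold the mapped sequence beside them. The same mark covers KRAB zinc finger genes, repressors of transposable elements, several clusters of which lie next to centromeres.

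Promoters are shown first for 4 protein-coding genes whose start lay in a pericentromeric peak, as the sequence that such a peak covers at a gene. Of 36 such genes 16 had a promoter that could be matched between builds, and these 4 had the widest peaks among them. In hg19 the interval start of VSX1 lay in a peak of 10200 bp, that of ZNF239 in one of 6450 bp, that of LRRC55 in one of 4350 bp and that of SPATA18 in one of 3900 bp. The nearest edge of the peak was 4895, 3215, 1279 and 496 bp away. VSX1 is a homeobox factor of the retina, ZNF239 a zinc finger gene, LRRC55 a subunit of potassium channels and SPATA18 a mitochondrial quality control gene. The 250 bases before the RefSeq start are given on GRCh38.p14 (VSX1 chr20:25081332-25081581, minus strand; ZNF239 chr10:43574617-43574866, minus strand; LRRC55 chr11:57181703-57181952, plus strand; SPATA18 chr4:52051054-52051303, plus strand), with each CG in capitals.
VSX1: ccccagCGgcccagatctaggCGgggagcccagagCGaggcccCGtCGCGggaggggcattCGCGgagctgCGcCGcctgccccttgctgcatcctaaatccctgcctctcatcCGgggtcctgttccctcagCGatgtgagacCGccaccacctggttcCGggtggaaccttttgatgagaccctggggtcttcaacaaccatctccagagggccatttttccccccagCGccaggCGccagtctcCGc
ZNF239: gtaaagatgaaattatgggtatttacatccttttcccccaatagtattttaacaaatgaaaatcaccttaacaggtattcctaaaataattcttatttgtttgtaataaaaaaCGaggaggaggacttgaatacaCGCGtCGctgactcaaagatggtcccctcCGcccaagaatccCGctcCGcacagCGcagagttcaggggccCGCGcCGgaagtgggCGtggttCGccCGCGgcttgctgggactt
LRRC55: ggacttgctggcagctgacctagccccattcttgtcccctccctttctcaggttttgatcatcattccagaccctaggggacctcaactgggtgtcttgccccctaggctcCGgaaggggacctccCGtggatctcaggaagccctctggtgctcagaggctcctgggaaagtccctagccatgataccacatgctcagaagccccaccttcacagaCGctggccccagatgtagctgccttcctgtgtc
SPATA18: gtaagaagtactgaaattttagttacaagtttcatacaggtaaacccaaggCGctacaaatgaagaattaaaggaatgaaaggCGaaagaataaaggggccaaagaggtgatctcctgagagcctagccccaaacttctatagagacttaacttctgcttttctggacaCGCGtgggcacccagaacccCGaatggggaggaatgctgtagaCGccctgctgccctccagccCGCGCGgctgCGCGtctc
The motif searched was CG, which reads the same on both strands. It occurred 17 times upstream of VSX1, 15 times upstream of ZNF239, 3 times upstream of LRRC55 and 11 times upstream of SPATA18. Promoters were matched by symbol and chromosome for 334 of 464 protein-coding symbols of the flanks, and 225 of them had a gene span that differed by no more than 1000 bp between the builds. Among these the 16 with an interval start in a peak had a median of 13.5 CG in 250 bases and the other 209 a median of 14. For GABRB1, which is among the 16, the promoter used lies apart from that interval start. At least 1 CG was found in 93.6% of all 27305 promoters, whose median was 11. Peaks themselves could not be read as sequence, since no hg19 genome was used here.

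Peak density beside the centromere gaps was close to that of the chromosome arms as a whole. The flanks held 46.6 peaks per Mb and the rest of the 17 chromosomes 43.7, a ratio of 1.07. Of the flank sequence 8.10% lay in peaks, against 6.49% of the rest, a ratio of 1.247. Both ratios fell below 1 without chromosomes 8 and 19 together: density was 40.2 against 43.4 peaks per Mb and cover 5.58% against 5.65%, ratios of 0.927 and 0.987. Other chromosomes had denser flanks than rest too: chromosome 7 had 99.5 against 45.2 peaks per Mb, chromosome 10 79.3 against 55.1 and chromosome 4 52 against 34.2. KBM7 is known to carry an extra copy of chromosome 8, and the part of copy number in its values was not tested. Outside its flanks too chromosome 8 had 15.1% of its sequence in peaks and a median width of 2700 bp. With the 100 kb bins that held neither a peak nor a gene interval left out, density was 55.7 per Mb in the flanks and 45.8 in the rest, a ratio of 1.22. In total there were 2444 peaks on the p side (lower coordinates) and 2307 on the q side.

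Single flanks ranged from 0 to 176 peaks per Mb, with a median of 38.8. The 4 fullest flanks (19p, 19q, 10q and 7q) held 1554 peaks, 32.7% of the set. A density at least 1.5 times that of the rest of the chromosome was seen in 5 of the 34 flanks (14.7%), beside 13.9% of all 785 windows of 3 Mb tiled outward from the gaps. At least 2 times the rest was reached by 4 flanks (11.8%), beside 4.46% of windows. By cover 8 flanks (23.5%) passed 1.5 times, beside 17.6% of all windows. Low flanks, at most 1/1.5 of the chromosome, numbered 9 by density (26.5%, beside 29.6% of windows) and 11 by cover (32.4%, beside 37.2%). At 1.5 times, the shares by density thus lay near those of all windows; at 2 times, and by cover, high flanks were more frequent than high windows, on counts of 4 and 8.

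**Figure D1:**
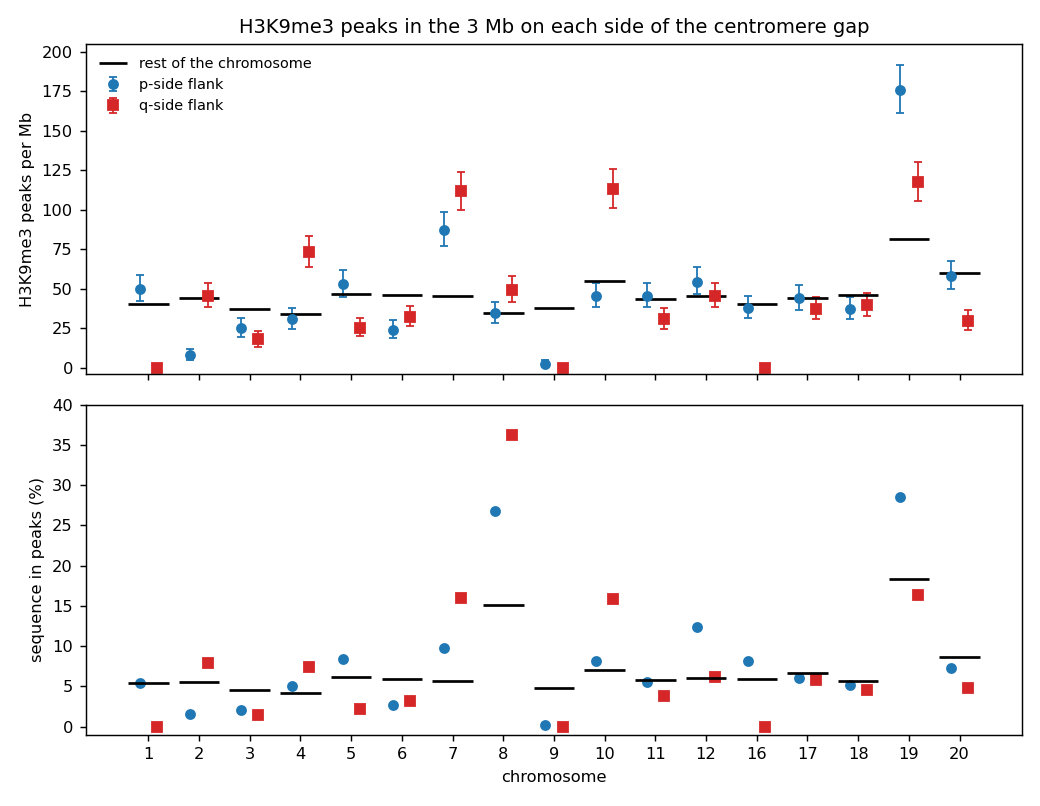
Peaks per Mb (upper panel) and percent of sequence in peaks (lower panel) in each 3 Mb flank by chromosome, with exact 95% Poisson intervals of the count above and a black line for the rest of the chromosome. The p-side flank of chromosome 19 is highest in density at 176 per Mb and the q-side flank of chromosome 8 in cover at 36.2%.

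The dense flanks were 19p, 10q, 7q, 7p and 4q. The p-side flank of chromosome 19 (21700000 to 24699999) held 528 peaks, or 176 per Mb (95% Poisson interval 161 to 192), 2.16 times the rest of chromosome 19, and was the densest of the 18 windows of its chromosome. On 10q (42300001 to 45300000) 339 peaks gave 113 per Mb (101 to 126), 2.05 times the rest. Chromosome 7 was dense on both sides, with 262 peaks on 7p, 87.3 per Mb (77.1 to 98.6), and 335 on 7q, 112 per Mb (100.03 to 124). These were 1.93 and 2.47 times the rest of the chromosome, the third and second highest of its 51 windows. The q-side flank of chromosome 4 held 220 peaks, 73.3 per Mb (64.0 to 83.7), a ratio of 2.14. Its opposite side held 92, 30.7 per Mb (24.7 to 37.6). These intervals cover counting error only, and the 62 windows of chromosome 4 held from 23 to 312 peaks. On chromosome 10 likewise the p side held 137 peaks, 45.7 per Mb (38.3 to 54.0), well below the q side.

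The dense flanks differed in how evenly their peaks lay. On 7q single stretches of 0.5 Mb held from 1 to 130 peaks, on 7p from 17 to 85, on 19p from 49 to 107 and on 10q from 42 to 78. The fullest 0.5 Mb stretch ran from 62100001 to 62600000 on chromosome 7, with 130 peaks covering 31.4% of it and 2 gene intervals centred there. The next, from 63600001 to 64100000, held 113 peaks and 4 gene intervals. On 19p the stretches from 23200000 to 23699999 and from 23700000 to 24199999 held 107 and 106 peaks, covering 35.3% and 29.2%. The first 0.5 Mb of 7q, next to the gap, held 1 peak.

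Sparse flanks were 2p, 3q, 5q, 6p, 9p and 20q, besides 3 with no peak at all. The q-side flanks of chromosomes 1, 9 and 16 held 0 peaks and 0 gene intervals in any of their 30 bins of 100 kb; whether hg19 holds placed sequence there was not tested. On 9p 7 peaks were found, 2.33 per Mb (0.938 to 4.81), the nearest 1701 kb from the gap. The 25 symbols of 9p had a median gene score of 1.19 reads per kb, 6 of them had 0 reads and none had a peak. On 2p, where the immunoglobulin kappa segments lie, 24 peaks gave 8 per Mb (5.13 to 11.9), the lowest density among the 79 windows of chromosome 2. The other sparse flanks had 18 (3q), 25.3 (5q), 24.0 (6p) and 29.7 (20q) peaks per Mb.

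Width set the pericentromeric peaks apart in its upper tail, not in its middle. The median peak was 900 bp wide (25th to 75th percentile 600 to 1650), the same as in the rest of the chromosomes (600 to 1650). The 90th percentile was 3300 bp against 3000, and the 99th 14250 against 9000. Peaks of 10 kb or more made up 1.68% of the set (80 peaks, exact binomial interval 1.34 to 2.09) and 0.779% of the rest (0.726 to 0.836), beside 0.82% of both together. These 80 peaks held 22.5% of the bases in the set's peaks, against 8.16% in the rest. Without chromosome 8, which held 43 of them, the shares were 0.822% (0.580 to 1.13) and 0.343% (0.307 to 0.382), beside 0.365% of both together. In 11 of the 17 chromosomes the share was higher in the flanks, for several of them on very few peaks. Chromosomes 1, 5, 16 and 17 had 1 wide peak each in their flanks, and chromosomes 4 and 20 had 2 each. On chromosome 16 the shares were close, 0.877% against 0.825%, and on chromosome 17 they were 0.410% against 0.343%. The exceptions were chromosomes 3, 6, 9, 11 and 18, with 0 wide peaks in their flanks, and chromosome 19, with 5 of 880 (0.568%) against 2.79% in its rest.

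Wide peaks lay close to the gap. In the first 1 Mb from the gap 48 of 1620 peaks were 10 kb or wider, 2.96% (2.19 to 3.91). From 1 to 2 Mb the count was 5 of 1604, 0.312% (0.101 to 0.726), and from 2 to 3 Mb 27 of 1527, 1.77% (1.17 to 2.56). Without chromosome 8 the first 1 Mb held 31 of 1544, 2.01% (1.37 to 2.84), and the next 2 Mb held 6 of 2955, 0.203% (0.0745 to 0.441), with 3 of 1418 left from 2 to 3 Mb. The 31 peaks were spread over 14 flanks. With any other chromosome left out as well, the share stayed between 1.67% and 2.13% in the first 1 Mb and between 0.141% and 0.242% beyond it. In the bands of 1 Mb from 3 to 9 Mb outside the gap, without chromosome 8, it ran from 0.0844% to 0.725%. Density had no such step: it was 48.4 peaks per Mb in the first 0.5 Mb, 49.4 in the last 0.5 Mb of the flank and 48.9 in the 0.5 Mb just outside it.

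**Figure D2:**
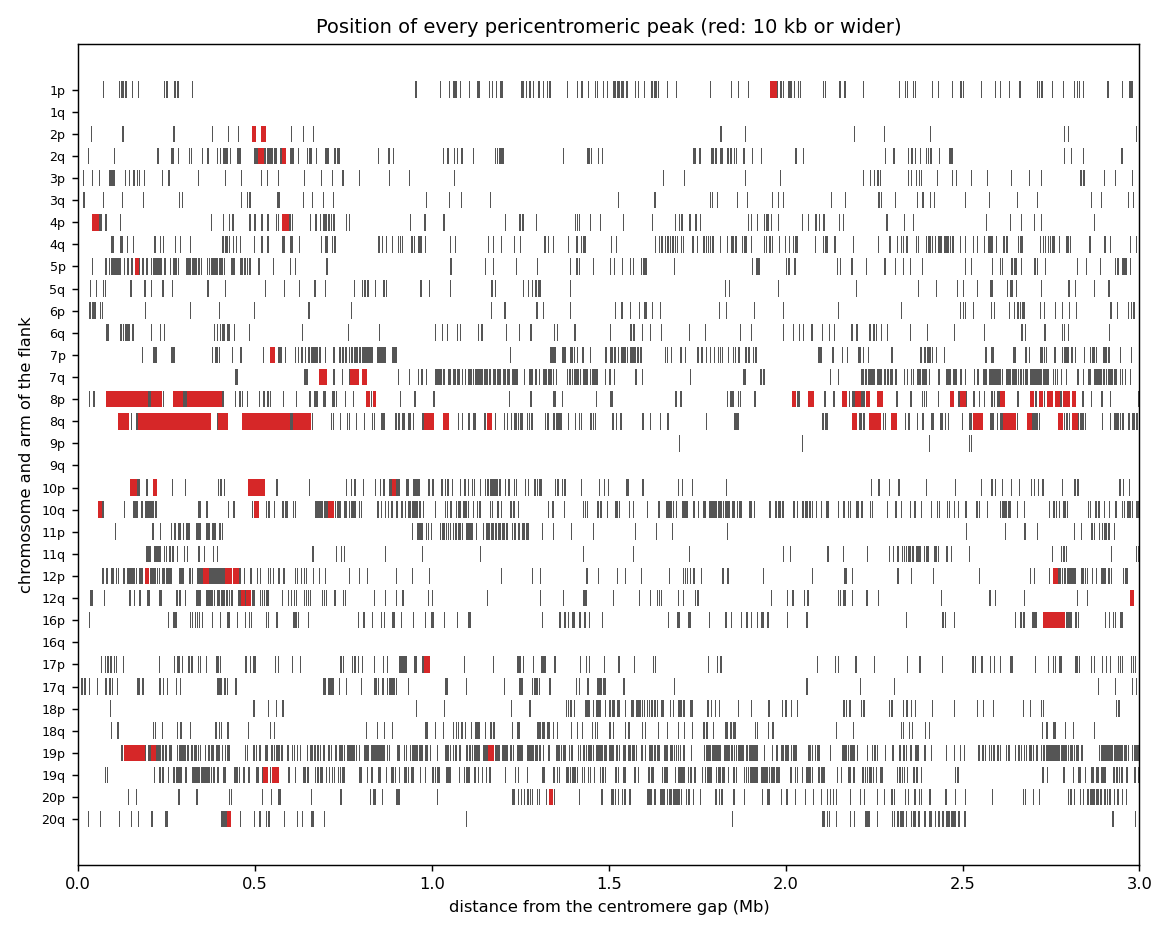
Each row is a flank (chromosome and arm) and each bar a peak at its distance from the centromere gap in Mb, drawn at its width but never narrower than 3 kb; red bars are 10 kb or wider. Outside chromosome 8, 31 of the 37 red bars lie in the first 1 Mb.

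Sequence next to the gap was covered unevenly between arms. Over all flanks 12.1% of the first 0.5 Mb lay in peaks, and 7.68% without chromosomes 8 and 19. In 18 of the 31 flanks with a peak, cover was higher in the first 0.5 Mb than in the other 2.5 Mb, and the medians were 6.68% and 5.86%. On 12p 45.1% of the first 0.5 Mb was covered against 5.86% of the other 2.5 Mb. The values were 32.2% and 3.69% on 5p, and 20.3% and 3.33% on 12q. Chromosome 8 reached 63.7% and 62.2% on its p and q sides, against 19.4% and 31.0% farther out. The order was opposite on 7q, with 1.53% near the gap and 18.9% beyond, and on 18p, with 0.48% and 6.12%.

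The widest pericentromeric peaks mostly held no gene, like most peaks of the flanks. On chromosome 8 the widest ran from 46969201 to 47175900 (206700 bp), 273 kb from the gap, and the next from 43603501 to 43720500 (117000 bp), at 138 kb; neither overlapped a gene interval. Of the 10 widest, 7 lay on chromosome 8 and 1 each on 16p, 19p and 10p. An interval was overlapped by 2 of the 10 (AC134698.1 and RP11-567J20.3) and by 22 of the 80 flank peaks of 10 kb or more. Both counts lay near the 28.3% of all flank peaks that overlapped one. Outside chromosome 8 the widest was 60750 bp, reached on 19p from 24510451 to 24571200, 159 kb from the gap, and on 16p from 32511751 to 32572500, 2758 kb from it. Then came 38772451 to 38803050 on 10p (30600 bp), 61867651 to 61894350 and 61779301 to 61803000 on 7q (26700 and 23700 bp) and 34464001 to 34485450 on 12p (21450 bp), none over a gene interval. Where the widest peak of a flank did reach a gene, it lay over TBX15 on 1p (19500 bp), MRPS5 and ZNF514 on 2q (15900 bp), KCNJ12 on 17p (14550 bp), VSX1 on 20p (10200 bp), ZNF519 on 18p (6000 bp) or PRIM2 on 6p (4650 bp). AC091588.1 on 18q (4650 bp) completes that list.

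At the outer edge of the flanks the values changed little. The last 0.25 Mb inside held 473 peaks (55.6 per Mb) and the next 0.25 Mb outside 443 (52.1 per Mb), both with a median width of 900 bp. The last peak inside was 5400 bp wide at 40799101 to 40804500 of chromosome 8, and the first outside 1650 bp wide at 21698701 to 21700350 of chromosome 19.

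Fewer pericentromeric peaks lay in genes, in proportion to the fewer genes there. Of the 4751 peaks, 1345 (28.3%) overlapped a gene interval, against 48.4% in the rest of the chromosomes. Gene intervals made up 29.2% of the flank sequence and 53.2% of the rest. Per Mb of gene interval there were 45.2 peaks in the flanks and 39.8 in the rest, and per Mb between intervals 47.2 and 48.2. Between gene intervals 1.70% of peaks were 10 kb or wider in the flanks and 0.470% in the rest, and within intervals the shares were 1.64% and 1.11%. The share of peaks in genes was highest on 4p (67.4%) and 4q (132 of 220) and lowest, apart from 9p with 0 of 7, on 11p (0.730%, 1 of 137). Gene intervals made up 65.9% of 4p, 61% of 4q and 2.89% of 11p. Neighbouring peaks were closer together, with a median of 5.25 kb between starts against 7.05 kb.

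Genes of the flanks carried about as much of the mark as genes elsewhere. The gene score is the number of reads per kb of the gene interval, and a symbol with several intervals is represented by the best-scoring one. The 728 flank symbols with intervals of 1 kb or more had a median score of 40.8, against 38.4 in the rest of the chromosomes. Of all 1056 flank symbols, 355 had a peak, 33.6% (30.8 to 36.6, exact binomial), against 37.6% in the rest (37.0 to 38.1) and 37.4% of both together. Among protein-coding symbols the shares were 42.7% (38.1 to 47.3) and 43.7% (42.9 to 44.5). The start lay in a peak for 111 flank symbols, 10.5% (8.73 to 12.5), beside 8.36% of flanks and rest together. Symbols with 0 reads were 19, or 1.80%, against 0.714% in the rest of the 17 chromosomes and beside 1.34% of symbols on all chromosomes. Flanks with more peaks also had higher gene scores, with a Spearman coefficient of 0.648 between peaks per Mb and median score over 31 flanks; both come from the same reads. The median score was 122.6 on 8q, 91.3 on 19p, 75.2 on 7q and 73.2 on 10q, and 11.04 on 2p, there from only 2 symbols. Outside the flanks it was 85.9 on chromosome 8, 32.9 on 19, 38.9 on 7, 39.1 on 10 and 40.7 on 2. The other flank of chromosome 8, 8p, had a median of 72.6, below the rest of that chromosome.

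Among the gene lists with 3 or more members, zinc finger genes most often had a peak in the flanks. These genes, many of them KRAB repressors, numbered 41 (symbols with ZNF or ZFP and a number), and 39 had a peak, beside the 37.4% given above. Their median score was 81.9, with 38 above the median of all symbols (43.5), which 50% of symbols pass, and 4 above the 90th percentile (147), which 10% pass. Among symbols of 1 kb or more, as these genes are, only 3.43% passed 147 in the flanks and 2.63% in the rest. The 2 without a peak, looked up after their values were seen, were ZNF654 on 3p and ZNF99 on 19p. ZNF32 on 10q (44139307 to 44144304) scored highest at 253 (95% Poisson interval 239 to 267) with 86.9% of its length in a peak. ZNF514 on 2q (95813075 to 95831158) followed at 161 (155 to 166) with 89.7% covered, and ZNF724P on 19p at 155 (150.1 to 159) with 85.9%. ZNF654 was lowest at 23.0 (19.2 to 27.4). Among flank genes of 10 kb or more, 8 of the 10 with the highest cover were zinc finger genes: besides ZNF514 and ZNF724P these were ZNF681 (80.0%), ZNF100 (74.7%), ZNF675 (74.4%), ZNF2 (64.3%), ZNF37A (63.5%) and ZNF429 (63.5%). AC123912.1 on 19p (75.2%) and C12orf35 on 12p (72.5%) were the others.

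On chromosome 19 the zinc finger genes beside the centromere were less covered than those of the rest of the chromosome. The 17 of the p-side flank had a mean cover of 37.8% and a median score of 91.3, and the 228 others of chromosome 19 had 62.3% and 141. Nearly all had a peak in both sets, 16 of 17 and 212 of 228. The flank genes were longer, with a median of 33.0 kb against 21.3 kb, and the part of length was not tested. Cover in the flank ran from 0% in ZNF99 and 1.16% in ZNF257 over 25.1% in ZNF43 to 59.6% in ZNF91 and 85.9% in ZNF724P. Outside chromosome 19 the 24 flank genes had a mean cover of 32.1% and the 231 others 31.8%, and 23 of 24 against 158 of 231 (68.4%) had a peak. On chromosome 10 the 9 flank genes had 40.5% and the 7 others 19.98%, and on chromosome 7 the 7 flank genes had 26.1% and the 25 others 22.2%. A start in a peak was seen for 8 of the 41, beside 8.36%. Of the peaks in the flanks 248 (5.22%) overlapped a zinc finger gene, against 1.77% in the rest of the chromosomes, 110 of them among the 528 on 19p. By bases of peaks the shares were closer, 5.69% and 4.30%. The median width of such peaks was 1200 bp in the flanks and 1800 bp in the rest. Zinc finger symbols numbered 41 in the 102 Mb of flanks and 459 in the 2302 Mb of the rest.

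**Figure D3:**
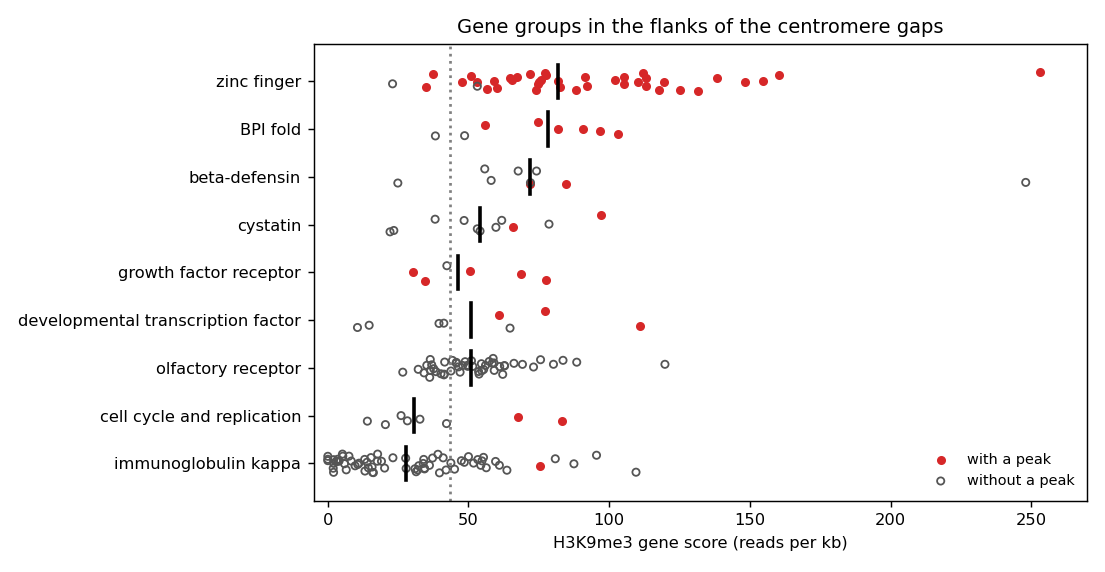
H3K9me3 gene score in reads per kb for each member of 9 gene groups in the flanks; filled points have a peak, open points have none, black bars are group medians and the dotted line is the median of all symbols. Points are single symbols of 1 library, and all 49 olfactory receptors are open.

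Olfactory receptors, the odorant receptors of the nasal epithelium, had no peak beside the centromere of chromosome 11. All 49 of the list in the flanks lay on 11q, and 0 had a peak, which allows a share of up to 6.12% taken as 3 of 49, or 7.25% by the exact binomial interval. Among the 112 others of chromosome 11, 22 had one, 19.6% (12.7 to 28.2). The median score of the 49 was 51.1 and 35 of them passed the median over all symbols, while the 112 others had a median of 86.3. OR9G1 was highest at 120 (98.5 to 144) on 110 reads, followed by OR5AP2 at 88.5 (71.0 to 109) and OR5D14 at 83.6 (66.2 to 104), and OR5M3 was lowest at 26.6 (17.7 to 38.5). These genes are short: the median interval was 0.988 kb, and 1.04 kb for the others of the chromosome.

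Immunoglobulin kappa segments, which make up most of the genes of 2p, had 1 member with a peak among 68, beside 37.4% of all symbols of the 17 chromosomes. The lengths are unlike: only 2 of the 79 symbols of 2p reached 1 kb, and symbols outside the flanks had a median of 12.7 kb. A short interval has less room to overlap a peak, and the part of length was not tested. Of the 14 others of the list on those chromosomes 5 had one (35.7%), with a median score of 102. In the flanks their median score was 27.8, 19 passed the median over all symbols, and 3 had 0 reads. IGKV2-19 scored 110 (74.4 to 155) on 31 reads, IGKV1-9 95.5 (71.1 to 126) and IGKV1-17 87.5 (63.6 to 117). Many of these segments have a near-identical distal copy, so their reads could be split and these scores are uncertain.

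Chromosome 20 has 3 families of secreted proteins beside its centromere, whose counts stand beside 37.4% of all symbols with a peak. The cystatins of 20p, inhibitors of cysteine proteases, had a median score of 54.1, and 2 of 11 had a peak: CST9L at 97.1 (87.7 to 107) and CST9 at 65.8 (57.5 to 74.9). CST11 scored 78.6 (67.9 to 90.5) without one, and CSTL1 was lowest at 22.1 (18.3 to 26.5). The beta-defensins of 20q, antimicrobial peptides, had a median of 71.8 with a peak in 2 of 9, against 7 of 30 (23.3%) elsewhere on the 17 chromosomes. DEFB117 reached 248 (170 to 350) on 32 reads over 0.129 kb, whereas DEFB123 scored 84.7 (79.0 to 90.7), DEFB121 74.2 (68.3 to 80.4) and DEFB115 24.9 (18.4 to 32.9). The BPI fold genes of 20q, lipid-binding proteins of the airways, had a median of 78.1, and 6 of 8 had a peak. BPIFA1 scored 103 (95.8 to 111) with 34.4% covered and its start in a peak, BPIFB6 96.7 (91.3 to 102), BPIFA3 90.5 (84.9 to 96.5), and BPIFB2 38.2 (35.3 to 41.4) without a peak.

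Growth factor receptors, cell surface kinases and NOTCH2, had peaks in 5 of 6, beside 37.4% of all symbols, with a median score of 46.4. PDGFRA on 4q (55095264 to 55164414), the receptor of platelet-derived growth factor, scored 77.5 (75.5 to 79.6) and had 16 peaks over 32.1% of its length. Its neighbour KIT, the stem cell factor receptor, scored 50.4 (48.9 to 52.0), with 4 peaks over 3.62%. EGFR on 7p (55086714 to 55324313) scored 68.7 (67.6 to 69.7) with 32 peaks over 11% of its 237.6 kb interval and its start in a peak. NOTCH2 on 1p scored 34.7 (33.8 to 35.6), RET on 10q 42.3 (40.6 to 44.1) with no peak, and EPHA3 on 3p 30.2 (29.7 to 30.8).

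Of 8 developmental transcription factors in the flanks 3 had a peak, VSX1, TBX15 and ISL1, a share near the 37.4% of all symbols. VSX1 scored 111 (105 to 117) with 47.9% covered, and TBX15, a T-box factor of skeleton and muscle, 77.1 (75.5 to 78.8) with 15 peaks over 18.5%. GATA6 on 18q, a factor of heart and gut, scored 64.8 (62.1 to 67.6) without a peak, and ID1 on 20q 10.5 (5.61 to 18.03) on 13 reads. Among channels and transmitter receptors 4 of 5 had a peak, beside the same 37.4%. KCNJ12, a potassium channel, scored 94.4 (91.4 to 97.4) with 33.2% covered, and GABRB1, a subunit of GABA receptors, 43.6 (43.0 to 44.2). The interval start of GABRB1 lay in a peak that also held the start of GABRA4. The matched RefSeq promoter of GABRB1 lies elsewhere on GRCh38.p14, at chr4:47031317-47031616, and that of GABRA4 at chr4:46993532-46993831. HTR1F, a serotonin receptor, scored 37.7 (31.2 to 45.3) without one.

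The 8 cell cycle and replication genes of the flanks had a median score of 30.5, below the median of all symbols, and 2 had a peak, beside 37.4% of all symbols. These were PRIM2, a DNA primase subunit, at 83.2 (82.2 to 84.2) with 11 peaks, and GINS4, a subunit of the GINS complex of the replication fork, at 67.6 (63.6 to 71.8). POLB scored 42.2 (40.01 to 44.4), and TPX2, a spindle protein, 14.1 (13.1 to 15.02). Of the reference genes, the DNA methyltransferase DNMT3B scored 15.2 (14.1 to 16.3), the chromatin regulator ASXL1 17.9 (17.02 to 18.9), the survival factor BCL2L1 21.5 (20.3 to 22.7), FOLH1 22.9 (21.7 to 24.1) and the DNA repair kinase PRKDC 32.7 (31.9 to 33.6), all without a peak. LRRK2 on 12q scored 36.2 (35.3 to 37.1) with 2 peaks over 0.869% of its length.

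Of the microRNAs 9 lay in the flanks and none overlapped a peak, against 56 of 501 (11.2%) elsewhere on the 17 chromosomes. A count of 0 among 9 says little beside that share. MIR663 on 20p held 1005 reads in 0.093 kb, a score of 10806 (10149 to 11496), the highest of its list. It lies inside RP3-410C9.1, which scored 169 and had no peak either. The RefSeq entry matched through its synonym is hsa-miR-663a (GRCh38.p14, minus strand, chr20:26208243-26208264), shown because of that score, with its seed (bases 2 to 8) in capitals.
hsa-miR-663a: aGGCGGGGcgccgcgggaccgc
RN5-8S2 on 16p, a ribosomal RNA pseudogene chosen after its value was seen, held 373 reads in 0.152 kb, a score of 2454, with no peak. MIR486 scored 397 (262 to 578) on 27 reads, MIR133A1 on 18q 182 (104 to 295) on 16 reads, and MIR320C1 34.1 (7.03 to 99.6) on 3 reads.

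Among intervals of 1 kb or more ZNF32-AS1 led at 515 (475 to 558), inside the ZNF32 peak on 10q, and ZNF32-AS2 there scored 231 (211 to 253). Both intervals lie within that of ZNF32 on the other strand, so the reads of the 3 genes cannot be told apart. LINC00273 on 16p came next at 455 (421 to 491) without any peak, then RP11-567J20.3 on 8q at 447 (410 to 486) and RP11-15G16.1 on 8p at 291 (276 to 306), both wholly in a peak. Of the 15 highest, 7 lay on chromosome 8, which held 31 (8p) and 16 (8q) of the 728 flank symbols of 1 kb or more. Scores were high along that chromosome: outside its flanks the median was 85.9, against 38.4 in the rest of all 17 chromosomes. Among the 7 on chromosome 8 were SGK196 at 180.3 (176 to 185) with 61.1% covered and SFRP1, an inhibitor of WNT signalling, at 178 (175 to 182). Only 8.84% of SFRP1 was covered. The others there were RP11-350F16.2 at 218 and RP11-350F16.1 at 175, both wholly in a peak, and RP11-567J20.2 at 204 without any peak. Outside it were AC092835.2 on 2q at 224, AC091588.1 on 18q at 169, RP3-410C9.1 on 20p at 169 and RP11-402L1.11 on 10q at 167.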

How the data were processed

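H3K9me3 chromatin immunoprecipitation was measured in 1 KBM7 library; the IgG library was not analysed here. The authors deposited reads per gene interval as raw counts, not normalised, and a score, the reads per kb of interval, per the file headers and the values. The authors' deposited peak list gives coordinates only, on a grid of 150 bp. Per the submitters' processing notes the tools were Bowtie2 and MACS (no version) and the build hg19; the settings and any use of IgG are not stated. Scores are not corrected for depth, IgG, mappability or copy number.

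Peaks were assigned to flanks by midpoint, and cover counts bases of peaks inside a window. Overlaps were 1 bp or more. Each chromosome was taken to end at the last coordinate found in the files. Gene types and promoters came from RefSeq tables on GRCh38.p14, matched by symbol (609 of 1056 flank symbols). No promoter of chromosome 8 was shown. Poisson and binomial (Clopper-Pearson) intervals are exact at 95% and cover counting error only; neighbouring peaks and genes are not independent. With 1 library no p-value was computed. Named genes are the 10 widest peaks and the widest of each flank, the 15 highest scores (1 kb or more), the 10 highest covers (10 kb or more), the 3 highest and the lowest of each list with 3 or more members, and 14 reference genes; ISL1, ZNF43, ZNF91, ZNF99, ZNF257, RN5-8S2 and the 4 genes with a printed promoter were chosen after their values were seen. One item named by the rule is not reported here. The members, the lists and the rule were chosen with earlier results of these data known. The POTE list had 1 member in the flanks, scoring 16.8. Interval functions were tested on simulated data. Computation used scipy 1.17.1, pandas 2.3.3, numpy 2.4.6 and matplotlib 3.10.9 under Python 3.11.15.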

Additional observations from a re-analysis of the deposited data

How the results depend on the processing

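No replicate and no control stand behind these values, and no paired analysis was possible because each group has 1 library and only H3K9me3 was analysed. The ratio of peak density in the flanks to the rest (1.07) fell below 1 without chromosome 19 (0.941) and without chromosomes 8 and 19 (0.927), was 1.00 with flanks of 5 Mb and 1.01 with peaks closer than 1 kb joined, and was 1.22 over 100 kb bins with a peak or a gene interval. The cover ratio (1.247) was 1.59 with flanks of 1 Mb, 1.09 with 5 Mb, 1.12 without chromosome 8, 1.16 without chromosome 19, 0.987 without both and 1.42 over bins with data. The share of peaks of 10 kb or more (1.68%) was 2.96% with flanks of 1 Mb, 1.28% with 5 Mb, 0.822% without chromosome 8, 0.884% without 8 and 19, 3.67% with near peaks joined and 2.19% among peaks of 600 bp or more. It was above the rest in 7 of 7 settings. By cover in place of density 8 flanks passed 1.5 times; at 2 times 4 did by density, beside 4.46% of windows. The share of symbols with a peak (33.6%) was 30.7% without chromosomes 8 and 19 and 42.7% among protein-coding symbols, both below the rest, but with a cover of 10% or more required it was 17.99% against 17.2%, the opposite order. The median gene score (40.8) was 49.2 over all intervals, 37.6 without chromosomes 8 and 19 and 36.6 among protein-coding symbols, above the rest in 6 of 6 settings. In all, 20 of 46 alternative values stayed within the 95% interval of the reported one or, for counts of flanks, within 1.5 times of it. The cover ratio has no interval of its own, and that of the density ratio was scaled to it, which does not measure the error of cover. The settings without chromosomes 8 and 19 together and for protein-coding symbols were chosen after seeing the data. Where a value moved with a chromosome left out, the cause was not tested. Depth limits the short intervals most.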
